A study of Mus musculus with 6 samples.

Results

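The genes described here are the nuclear receptors CAR (Nr1i3) and PXR (Nr1i2) with 6 cytochrome P450 genes, Cyp2a4, Cyp2a5, Cyp2a22, Cyp2b9, Cyp2b10 and Cyp2b13. They are 8 of the genes in a liver RNA-seq count table of 20914. Rows were found for 7 of the 8, and Cyp2b13 was not analysed here. The 8 genes were chosen by name, after Cyp2b9 had been seen to be lower in DOX than in PBS while most P450 genes were higher. Differences of these genes between DOX and PBS are therefore a description. The number of them that each tool called is given beside the share of all genes called, and nothing is read from it.

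The table covers 6 RNA-seq libraries of mouse liver, of which 3 carry the label PBS and 3 the label DOX. Every library carries the genotype label BucheKI/KI-Hep, a homozygous Buche knock-in in hepatocytes, together with Alb-Cre, a recombinase driven by the albumin promoter of hepatocytes. Every library, the PBS ones included, is also labelled BDL, which in mouse liver studies usually stands for bile duct ligation, and S10D. The labels do not explain S10D, DOX or the age of the mice, and the design text speaks of BUCHE overexpression in hepatocytes. Whether each library is from its own mouse is not stated either, so p-values reflect the scatter among these 6 libraries alone, part of which may be technical. The samples are whole liver, so fewer cells of a type and less RNA per cell cannot be told apart.

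CAR and PXR are nuclear receptors that sense foreign compounds, and PXR also binds bile acids. Each pairs with the retinoid X receptor on repeated half-sites in DNA and raises the transcription of genes for oxidation, conjugation and export. CAR is held in the hepatocyte cytoplasm until it is activated, so its transcript level does not show its activity. Cyp2b10 is the classical CAR target of mouse liver and Cyp3a11 the classical PXR target. The Cyp2a and Cyp2b genes stand in tandem on chromosome 7. Cyp2a5 encodes the coumarin 7-hydroxylase and its close copy Cyp2a4 a testosterone 15-alpha-hydroxylase, while Cyp2b9, Cyp2b13 and Cyp2a4 are known as female-biased genes of adult mouse liver.

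The receptor transcripts differed at most 1.61-fold between libraries. Cyp2a4, Cyp2a5 and Cyp2b10 differed 4.27-fold, 5.38-fold and 6.02-fold, and Cyp2a22 2.18-fold. Cyp2b9 was seen in 1 PBS library above all, with 101 of its 118 counts. Cyp2b10 was high in DOX replicate 3, and Cyp2a5 was low in DOX replicate 1.

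The copies of the cluster were alike enough for their sequences to bear on the counts. The coding sequences of Cyp2a4 and Cyp2a5 (GENCODE transcripts, GRCm38) were 98.5% identical over 1485 bases. The 60-base stretch with most differences between them is shown first, coding bases 598 to 657 counted from the A of the start codon, with the 4 differing bases in capitals.
Cyp2a4: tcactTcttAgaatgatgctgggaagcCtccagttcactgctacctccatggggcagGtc
Cyp2a5: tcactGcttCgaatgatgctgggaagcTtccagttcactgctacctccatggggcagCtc
Written with the Cyp2a4 base first, the differences are T603G, A607C, C625T and G655C. C625T lies in codon 209, which is known to set apart the substrates of the 2 enzymes. Of all 50-base windows of the Cyp2a4 transcript, 36.1% occurred letter for letter in Cyp2a5, and 11.2% of the 100-base windows did. A read from such a window cannot be assigned to 1 of the 2 genes, and the authors' handling of such reads is not given in the sources used here.

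Cyp2b9 and Cyp2b10 were further apart, with 86.2% identity of the coding sequences. Their most different 60 bases, coding bases 283 to 342, held 20 differences, in capitals.
Cyp2b9: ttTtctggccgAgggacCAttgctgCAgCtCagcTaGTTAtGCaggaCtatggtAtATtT
Cyp2b10: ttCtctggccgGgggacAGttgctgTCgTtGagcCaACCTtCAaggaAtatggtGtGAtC
Only 0.547% of the 50-base windows of Cyp2b9 occurred in Cyp2b10 (10 of 1827), but 10.8% occurred in Cyp2b13, whose coding sequence was 92.7% identical, and 8.24% of the Cyp2b10 windows occurred in Cyp2b13. Counts of both genes could thus include reads of Cyp2b13, whereas the counts of Cyp2b9 and Cyp2b10 rest on almost separate sequence. Cyp2a22 shared none of its 1747 windows of 50 bases with Cyp2a4 or Cyp2a5.

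The 250 bases before the start site of these 4 genes are shown because the copies are close in sequence and far apart in level (RefSeq, GRCm38.p6, plus strand). They are chr7:26306942-26307191 for Cyp2a4, chr7:26835089-26835338 for Cyp2a5, chr7:26173159-26173408 for Cyp2b9 and chr7:25897408-25897657 for Cyp2b10. Capitals mark matches to the TATA box letters TATAAA and to the C/EBP letters TTGCNNAA, C/EBP proteins being liver transcription factors.
Cyp2a4: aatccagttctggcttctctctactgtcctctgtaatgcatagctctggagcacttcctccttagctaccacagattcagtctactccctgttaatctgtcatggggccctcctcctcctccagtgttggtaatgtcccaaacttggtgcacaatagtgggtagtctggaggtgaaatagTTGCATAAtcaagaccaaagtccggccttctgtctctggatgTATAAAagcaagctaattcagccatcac
Cyp2a5: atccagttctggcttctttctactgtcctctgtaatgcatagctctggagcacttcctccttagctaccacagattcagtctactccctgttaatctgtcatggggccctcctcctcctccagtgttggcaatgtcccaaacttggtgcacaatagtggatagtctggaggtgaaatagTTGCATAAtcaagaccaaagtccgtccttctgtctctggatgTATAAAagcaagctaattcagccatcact
Cyp2b9: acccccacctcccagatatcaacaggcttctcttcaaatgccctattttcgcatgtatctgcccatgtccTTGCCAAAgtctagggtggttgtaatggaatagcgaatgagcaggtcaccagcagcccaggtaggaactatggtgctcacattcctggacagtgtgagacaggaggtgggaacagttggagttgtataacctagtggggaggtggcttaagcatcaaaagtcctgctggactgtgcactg
Cyp2b10: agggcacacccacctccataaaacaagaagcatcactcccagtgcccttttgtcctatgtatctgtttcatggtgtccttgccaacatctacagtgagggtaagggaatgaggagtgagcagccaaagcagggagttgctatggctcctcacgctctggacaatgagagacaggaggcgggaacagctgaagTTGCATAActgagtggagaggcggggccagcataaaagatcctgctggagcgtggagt
The Cyp2a4 and Cyp2a5 windows were 97.6% identical, and both held a TATA box and the same C/EBP letters. Cyp2b10 held a C/EBP match at -58 to -51 from the start, and Cyp2b9 a different one at -180 to -173. These 2 windows were 70.0% identical, and that of Cyp2b13 was 99.2% identical to Cyp2b9. Of 32851 promoters of this length, 12.4% held TATAAA and 9.56% TTGCNNAA on either strand. The letters of a STAT site, TTCNNNGAA, found in 7.02% of promoters, were not in the windows of the 8 genes. Nor were those of the receptors' own repeats, 2 copies of AGNTCA spaced by 3 letters (DR3, in 0.0517% of promoters), by 4 (DR4, in 0.103%) or by 5 (DR5, in 0.198%), and TGANCT with AGNTCA spaced by 6 (ER6, in 0.0304%). The same held for HNF1 (GTTAAT and ATTNNC spaced by 1 letter, in 0.116%) and for DR1 (2 copies of AGGNCA spaced by 1, in 0.338%), all searched on both strands. That says only that these letters are not in these windows. The phenobarbital-responsive enhancer of Cyp2b10 lies further upstream.

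Nr1i2, the PXR gene (chromosome 16, 38248323 to 38294824 in GRCm38, minus strand), stood at 61.8, 61.2 and 62.6 CPM in PBS replicates 1, 2 and 3. CPM are counts scaled to library size, here with TMM factors. In DOX replicates 1, 2 and 3 it stood at 77.0, 70.1 and 85.5 CPM. The PBS libraries were nearly equal, and the groups did not overlap. The means were 61.9 ± 0.717 and 77.5 ± 7.75 CPM (SD, n = 3 each), a log2 fold change of 0.32 (SE 0.10), which was 0.19 when libraries were scaled by size only. In the deposited FPKM, which are not TMM-scaled, the DOX libraries (26.1 to 28.6) also lay above the PBS libraries (22.8 to 24.8). Of all 13725 tested genes, 7.84% had all DOX libraries above all PBS libraries and 9.01% all below, so that 16.8% did not overlap.

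Nr1i3, the CAR gene (chromosome 1, 171213970 to 171220701, plus strand), stood at 70.3, 95.6 and 91.7 CPM in PBS and at 67.9, 100.5 and 109.5 in DOX. The lowest library of both groups was replicate 1, and the groups overlapped over most of their range. The log2 fold change of 0.11 (SE 0.19) turned to -0.02 when libraries were scaled by size only, to -0.04 on the FPKM table, to -0.03 without DOX replicate 3 and to -0.02 without PBS replicate 1.

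Cyp2a5 (chromosome 7, 26835305 to 26843548, plus strand) stood at 1034, 498.2 and 1184 CPM in PBS and at 268.8, 1153 and 1446 CPM in DOX. DOX replicate 1 was lowest and DOX replicate 3 highest, 5.38-fold apart within 1 group. PBS replicate 2 was the next lowest. The means of 905.6 ± 361 and 956.2 ± 613 CPM (SD, n = 3 each) differed by less than the spread, with a log2 fold change of 0.08 (SE 0.55). That value ran from -0.35 without DOX replicate 3 to 0.53 without DOX replicate 1, and it was -0.08 when scaled by library size only and -0.28 on the FPKM table. Its sign therefore hung on the scaling and on single libraries.

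Cyp2a4 (26307169 to 26315088, plus strand) had 84, 27 and 52 counts in PBS and 17, 25 and 44 in DOX. In CPM these were 1.94, 0.817 and 1.39 against 0.454, 0.738 and 1.19, and the groups overlapped. The log2 fold change of -0.81 (SE 0.46) became -0.48 without PBS replicate 1, -0.52 without DOX replicate 1, -1.22 without DOX replicate 3 and -0.35 on log2(FPKM + 1). Cyp2a4 made up 0.187%, 0.164% and 0.117% of the counts of the pair with Cyp2a5 in PBS, and 0.168%, 0.064% and 0.082% in DOX. The 95% Wilson intervals, which cover counting error only, ran from 0.151% to 0.231% in PBS replicate 1 and from 0.0433% to 0.0944% in DOX replicate 2. Over the 6 libraries the log2(CPM + 1) values of the 2 genes had a Pearson r of 0.69, a description over libraries that share depth and group. How many of the 17 to 84 counts of Cyp2a4 are reads of the far more abundant Cyp2a5 was not tested.

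Cyp2a22 (26931631 to 26939384, minus strand) stood at 5.24, 8.71 and 5.70 CPM in PBS and at 11.4, 7.74 and 10.9 in DOX. The groups overlapped through the replicate 2 libraries alone, the highest of PBS and the lowest of DOX. The log2 fold change was 0.62 (SE 0.23), and 0.87 without PBS replicate 2.

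Cyp2b10 (25897620 to 25926624, plus strand) stood at 6.39, 4.6 and 7.06 CPM in PBS and at 7.02, 4.90 and 27.7 in DOX. In DOX replicate 3 it had 1026 counts, against 152 to 277 in the other libraries, and that library held 48.0% of its summed CPM. DOX replicates 1 and 2 lay within the PBS range. The log2 fold change of 1.13 (SE 0.58) became -0.01 without DOX replicate 3.

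Cyp2b9 (26173411 to 26210661, plus strand) had 9, 101 and 4 counts in PBS and 1, 0 and 3 in DOX. PBS replicate 2 held 85.6% of all its counts, and the other 5 libraries had 17 together. In CPM the values were 0.208, 3.05 and 0.107 in PBS and 0.0267, 0 and 0.081 in DOX. A limit of 3 counts corresponds to 0.0886 CPM in DOX replicate 2 and to 0.080 and 0.081 CPM in DOX replicates 1 and 3, so none of the DOX libraries was above it. The groups did not overlap, but PBS replicates 1 and 3 were nearer to the DOX libraries than to PBS replicate 2. Of all tested genes, 9.01% were lower in DOX without overlap, and here the lowest PBS library had 4 counts and the highest DOX library 3. The pooled counts were 114 in PBS and 4 in DOX, and without PBS replicate 2 they were 13 and 4. The gene did not pass the count filter. Fitted without the filter its log2 fold change was -4.78 (SE 1.23), and -2.02 without PBS replicate 2, values that depend on the fit's treatment of counts near 0.

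**Figure D1:**
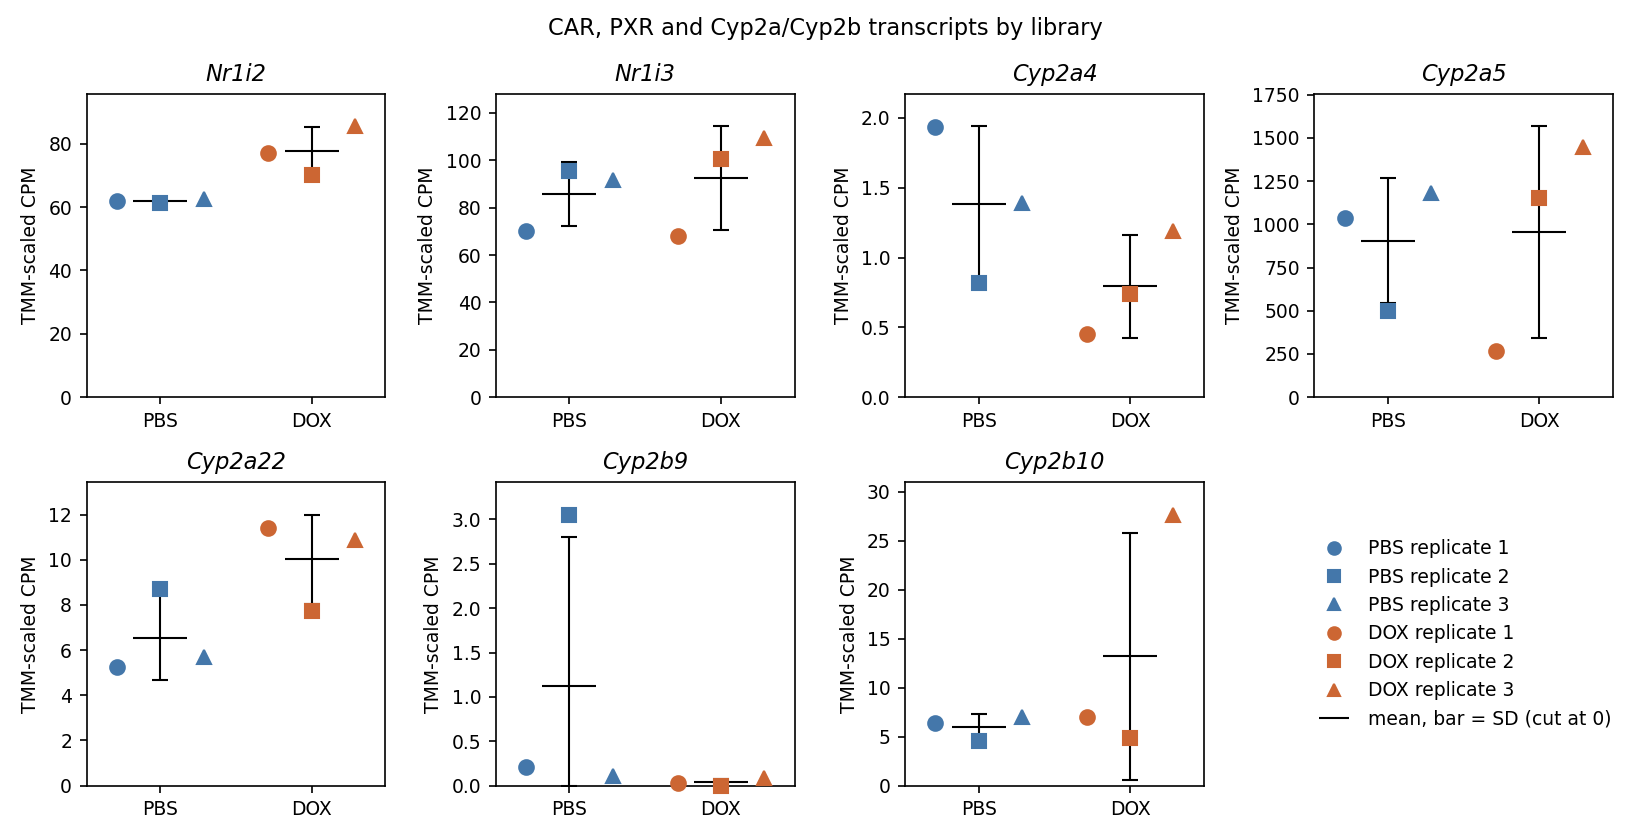
TMM-scaled CPM (vertical axes, each starting at 0) of the 7 genes in the 3 PBS (blue) and 3 DOX (orange) libraries, with the mean and SD as black bars. Single libraries stand apart for Cyp2b9 (PBS replicate 2, 3.05 CPM), Cyp2b10 (DOX replicate 3, 27.7 CPM) and Cyp2a5 (DOX replicate 1, 268.8 CPM), while Nr1i2 ranges only from 61.2 to 85.5 CPM.

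The spread within groups was widest for Cyp2a5, Cyp2b10 and Cyp2b9. For Cyp2b9 it is not separate from the choice of the genes. Its spread and its difference between groups both come largely from PBS replicate 2. The pooled within-group SD of log2(CPM + 1) was 0.10 for Nr1i2 and 0.31 for Nr1i3, against a median of 0.16 over all tested genes. It was 1.04 for Cyp2a5, higher than for 99.8% of the tested genes, and 0.88 for Cyp2b10, higher than for 99.6%. Cyp2b9 had 0.74. Cyp2a4 (0.32) and Cyp2a22 (0.31) were level with Nr1i3 on this scale, which compresses low values. The ranks among all tested genes hold for this scale only. The ratio of the highest to the lowest library was 1.40 for Nr1i2, 1.61 for Nr1i3, 5.38 for Cyp2a5 and 6.02 for Cyp2b10, with a median of 1.48 over tested genes. By this ratio, 4.43% of 13701 tested genes stood above Cyp2a5, 3.54% above Cyp2b10 and 6.93% above Cyp2a4. Cyp2a5, Cyp2b10, Nr1i2 and Nr1i3 were all highest in DOX replicate 3, and Cyp2b9 was highest in PBS replicate 2. DOX replicate 3 was the highest library for 21.3% of all tested genes and the lowest for 25.6%.

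No gene of this group changed at an adjusted p of 0.05 among the 6 tested by edgeR's quasi-likelihood test, where 0.0291% of all tested genes were called (4 of 13725), 0.0219% higher and 0.00729% lower. Without the filter none of the 7 was called either, where 0.292% of genes were called, 0.215% higher and 0.0765% lower. At an unadjusted p under 0.05 there were 2, Nr1i2 and Cyp2a22, both higher, where 5.03% of all tested genes were higher and 4.87% lower. DESeq2 called 1 of the 7, Cyp2b9, lower, where it called 1.19% of genes, 0.863% higher and 0.324% lower. As this contrast chose the genes, nothing is read from these counts.

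**Figure D2:**
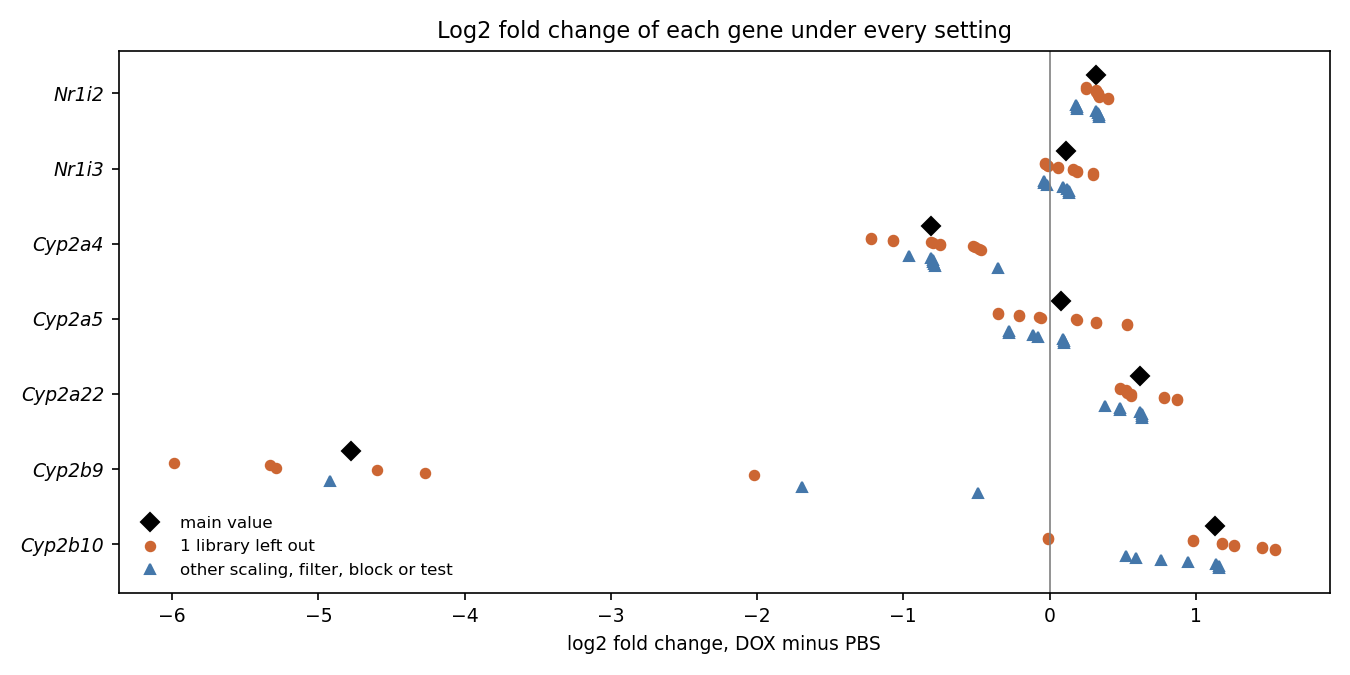
Log2 fold change of DOX against PBS (horizontal axis) for each gene under the main setting (black), with 1 library left out (orange) and under other scalings, filters, a replicate block or other tests (blue). Cyp2b10 drops from 1.13 to -0.01 and Cyp2b9 moves from -4.78 to -2.02 when 1 library is left out, and the points of Nr1i3 and Cyp2a5 lie on both sides of 0.

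Levels of different genes were compared per length, as deposited FPKM. Cyp2a5 had the highest median over the 6 libraries, 659.8 FPKM (range 150.6 to 760.2), followed by its neighbour Cyp2a12 with 447.3 FPKM (411.6 to 636.8), whose range lay within that of Cyp2a5. Nr1i3 came next among the genes described here with 42.1 FPKM (28.3 to 43.7) and Nr1i2 with 25.4 FPKM (22.8 to 28.6), their ranges overlapping by a small margin. Cyp2b10 (3.61 FPKM, range 2.47 to 13.3) and Cyp2a22 (3.53 FPKM, range 2.39 to 4.68) could not be ordered. Cyp2a4 followed with 0.552 FPKM (0.254 to 1.21) and Cyp2b9 with 0.045 FPKM (0 to 1.48). Cyp2b9 in PBS replicate 2, at 1.48 FPKM, was above Cyp2a4 in all 6 libraries. Cyp2a5 made up 94.6% to 99.1% of the summed FPKM of the 5 P450 genes in each library, so the P450 transcript pool of this group was almost entirely Cyp2a5.

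The listed Cyp2 genes of the cluster on chromosome 7 number 13, 9 of them with a row, and span 25802475 to 27158668 in GRCm38. Other genes or pseudogenes annotated in this interval were not counted or compared in sequence. Of the neighbours, Cyp2a12 stood at 668.6, 1054 and 760.7 CPM in PBS and 714.1, 750.9 and 817.6 in DOX, highest where Cyp2a5 was low in PBS. Cyp2f2, a periportal P450, stood at 195.7, 270.1 and 287.1 CPM in PBS and at 235.1, 217.7 and 710.9 in DOX. DOX replicate 3 was thus its highest library, as for Cyp2b10, Cyp2a5, Nr1i2 and Nr1i3. Cyp2g1 and Cyp2s1 were at most 0.83 and 1.57 CPM. Genes flanking the P450 genes, Axl, Egln2, Rab4b, Snrpa and Hnrnpul1, had log2 fold changes of -0.12 to 0.16. None of the 9 tested neighbours passed in edgeR or DESeq2, and none had an unadjusted p under 0.05.

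**Figure D3:**
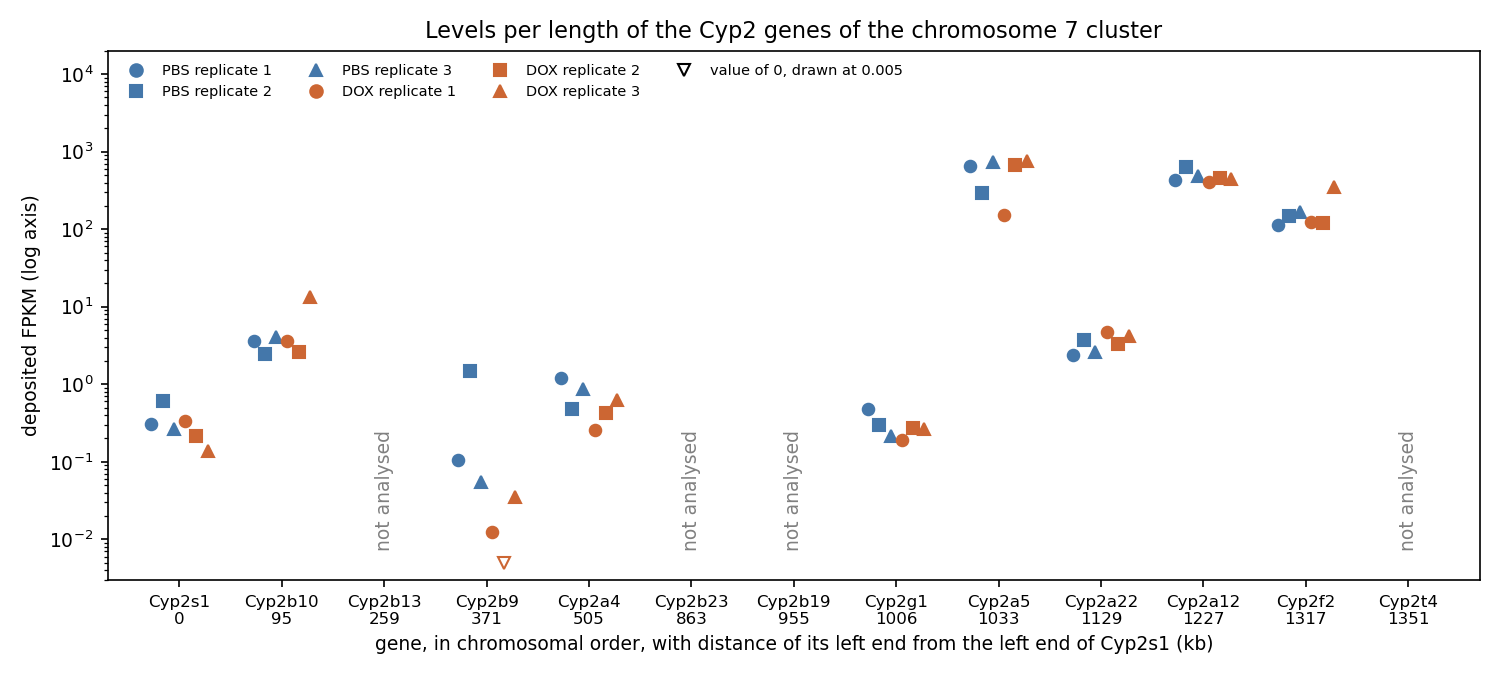
Deposited FPKM (log axis) of the listed Cyp2 genes of the cluster in chromosomal order, with the distance from the left end of Cyp2s1 in kb, for each PBS (blue) and DOX (orange) library. Cyp2a5 and Cyp2a12 reach 760.2 and 636.8 FPKM, Cyp2b10 stays at or below 13.3 FPKM, and Cyp2b9 spans 0 to 1.48 FPKM.

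The genes through which CAR and PXR act were taken from a list of 28 partners, coregulators and retention factors. All 28 were tested, and none passed in edgeR. At an unadjusted p under 0.05 there were 1 higher and 1 lower, and DESeq2 called 1. A single gene of 28 is near the 5.03% and 4.87% of all tested genes that were higher and lower, and DESeq2 called 1.19% of all genes. The median log2 fold change was -0.05, beside -0.02 for all tested genes. Rxra, the main retinoid X receptor of liver, stood at 347.8 to 382.3 CPM in PBS and 331.2 to 368.1 in DOX. Kat2b, a histone acetyltransferase, was the gene DESeq2 called, with 53.5 to 55.9 CPM in PBS and 67.6 to 85.5 in DOX (log2 fold change 0.47, SE 0.10, edgeR adjusted p = 0.244, DESeq2 adjusted p = 0.0268). For Med1, a Mediator subunit that binds nuclear receptors, the log2 fold change was -0.26 (SE 0.11). For Rxrg, a minor retinoid X receptor in liver, it was -0.34 (SE 0.17). Dnajc7 and the Hsp90 genes, chaperones that hold CAR in the cytoplasm, had log2 fold changes of -0.27 to 0.00.

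Other P450 targets of the receptors were a list of 19, of which 15 were tested, and the direction of such genes was part of the choice above. They are described without a test. Of the 15, 13 lay above 0 on the log2 scale, and the median over the 15 was 0.62, which was 0.38 without DOX replicate 3 and 0.44 without PBS replicate 2. Cyp3a11 stood at 2334, 883.1 and 2955 CPM in PBS and at 3169, 2162 and 5256 in DOX. Its lowest library was PBS replicate 2 and its highest DOX replicate 3, and the groups overlapped. Cyp2c29, a CAR target, stood at 299.8, 233.4 and 324.2 CPM in PBS and at 413.8, 573.1 and 859.1 in DOX. Cyp2c54, of the same subfamily, stood at 90.8, 77.0 and 96.8 CPM and at 124.5, 168.3 and 221.7, and neither gene overlapped between groups. Of the 15, 3 were higher in DOX without overlap and 1 was lower, where 7.84% of all tested genes were higher and 9.01% lower. The groups overlapped for Cyp3a25 (log2 fold change 0.93, SE 0.31) and for Cyp2c37 (0.62, SE 0.23). DOX replicate 3 was the highest library for 11 of the 15 genes, or 73.3%, against 21.3% of all tested genes. PBS replicate 2 was the lowest for 9 of the 15, or 60%, against 19.5% of all tested genes.

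**Figure D4:**
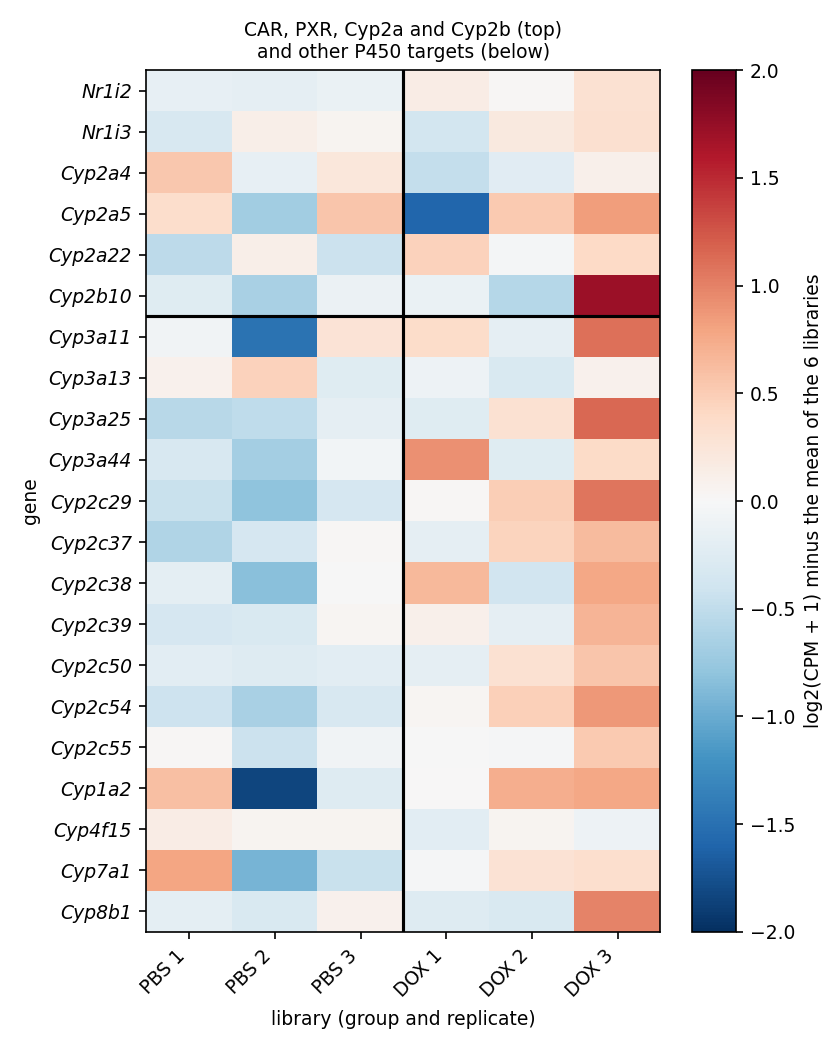
Log2(CPM + 1) of each tested gene minus its mean over the 6 libraries (colour, -2 to 2), for the 6 tested genes of the group (top) and 15 other P450 targets (below), with libraries in columns. The DOX replicate 3 column is red for most P450 targets and for Cyp2b10, and the DOX replicate 1 column is blue for Cyp2a5.

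Targets outside the P450 family were a list of 46, of which 44 were tested. They serve conjugation, transport, heme synthesis, lipid synthesis, glucose output and other functions. Neither this list nor the P450 list was sorted by whether the receptors raise or lower a gene. Their medians are therefore not a measure of receptor activity. None passed in edgeR. At an unadjusted p under 0.05, 15 of the 44 were higher and none lower, where 5.03% of all tested genes were higher and 4.87% lower. DESeq2 called 3 higher, where it called 0.863% of all genes higher. The median log2 fold change was 0.40, and 0.22 without DOX replicate 3, which was the highest library for 36 of the 44. Thrsp, a regulator of fatty acid synthesis, went from 125.6 ± 35.0 to 407.3 ± 195 CPM (edgeR adjusted p = 0.208, DESeq2 adjusted p = 0.0291). The fatty acid synthase gene Fasn differed by 0.96 on the log2 scale (SE 0.22) and the flavin monooxygenase gene Fmo5 by 0.48 (SE 0.14). Both passed in DESeq2 alone. Ugt1a1, the bilirubin glucuronosyltransferase, went from 232.1 ± 11.4 to 321.2 ± 54.0 CPM and passed in neither. Por, the electron donor of all microsomal P450 enzymes, and Alas1, which starts heme synthesis, had log2 fold changes of 0.03 and -0.09.

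As Cyp2b9 and Cyp2a4 are female-biased genes, 2 lists of sex-biased liver genes were set beside them. All 6 libraries had a male pattern, with Ddx3y at 2120 to 3044 counts and Xist at 0 to 9. Of 27 tested female-biased genes without Cyp2a and Cyp2b members, 18 lay above 0 on the log2 scale, and the median over the 27 was 0.21. That median was 0.05 without DOX replicate 3, 0.07 without DOX replicate 1, 0.12 without PBS replicate 1, 0.32 without DOX replicate 2 and 0.07 when scaled by library size only. PBS replicate 2, the library high in Cyp2b9, was the highest for 4 of the 27, or 14.8%, against 20.7% of all tested genes. Slc22a27, an organic anion transporter, went from 2.96 ± 0.602 to 1.31 ± 0.438 CPM (edgeR adjusted p = 0.347, DESeq2 adjusted p = 0.0413). Abcd2, a peroxisomal transporter, Abcg8, a sterol transporter, and Fmo1, a flavin monooxygenase, had log2 fold changes of 0.33, 0.94 and 0.33 and passed in neither tool. Over 29 tested male-biased genes the median was 0.23, and it was 0.09 without DOX replicate 3 and 0.14 without PBS replicate 2. PBS replicate 2 was the lowest library for 10 of them, or 34.5%, against 19.5% of all tested genes. Mup3, a major urinary protein, went from 4.92 ± 1.24 to 11.1 ± 2.61 CPM (edgeR adjusted p = 0.216, DESeq2 adjusted p = 0.000787), and Cyp2d9, a male P450, with a mean of 191.7 ± 53.4 CPM in DOX, differed by -0.65 on the log2 scale (edgeR adjusted p = 0.418). The part of sex-biased regulation in the Cyp2b9 value of PBS replicate 2 was not tested.

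**Figure D5:**
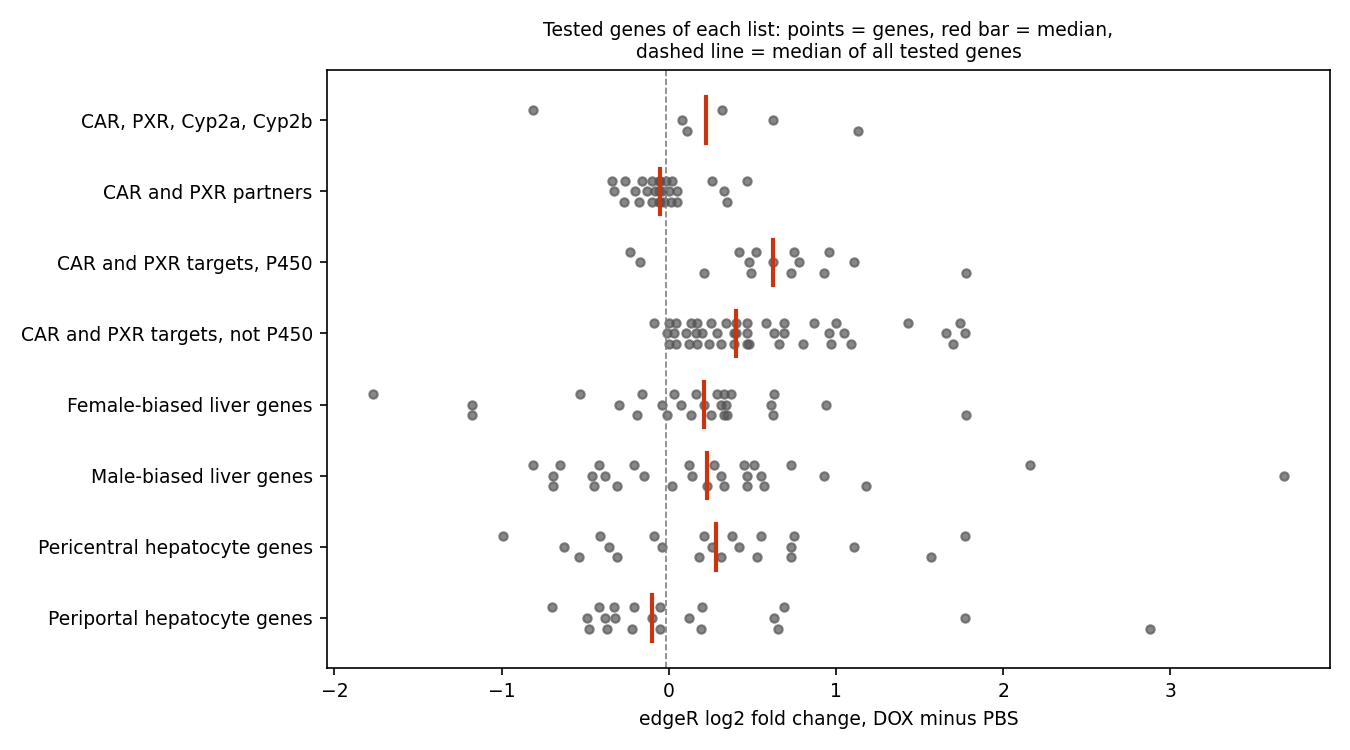
EdgeR log2 fold change of DOX against PBS (horizontal axis) for the tested genes of each list, with a red bar at the list's median and a dashed line at the median of all tested genes (-0.02). The partners lie close to 0 (median -0.05), and the P450 targets (median 0.62) and other targets (median 0.40) lie mostly to the right.

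Cyp2a5 and Nr1i3 are known as pericentral genes of the liver lobule, which gives the zone markers a place beside them. Of 22 pericentral genes, PBS replicate 2 was the lowest library for 15, and DOX replicate 1, where Cyp2a5 was lowest, for 3. Summed pericentral CPM were 4664, 3260 and 4718 in PBS and 4696, 6073 and 6620 in DOX, and summed CPM of 21 periportal genes were 19066, 23943 and 18816 in PBS and 17558, 20922 and 21413 in DOX. Cyp1a2, Cyp2c29 and Cyp7a1 are on both the pericentral and the P450 list. Their part in the P450 values was not tested.

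Libraries held 32826493 to 41102844 counts. Bche, the overexpressed gene, stood at 192.7 to 244.8 CPM in PBS and 447.3 to 968.8 in DOX, which checks the labels. Its log2 fold change was 1.67 (edgeR adjusted p = 0.106, DESeq2 adjusted p = 2.9e-08). Hepatocyte markers were abundant in each library, with 142025 to 218832 summed CPM over 20 genes, of which Alb alone made up 45604 to 113461. Summed CPM of 20 cholangiocyte markers were 484 to 607.5 in PBS and 322 to 481.2 in DOX, of 18 macrophage and neutrophil markers 1819 to 2353 and 1240 to 2724, and of 21 stellate and endothelial markers 433.7 to 635.9 and 544.3 to 809.9. The macrophage and neutrophil sum was carried largely by Lcn2, at 516.4 to 1766 CPM. That sum thus mostly follows Lcn2 and is not read as a level of those cells. DOX replicate 3 had the lowest cholangiocyte sum, and PBS replicate 2 the highest cholangiocyte and the lowest stellate and endothelial sums. Of the 18 tested cholangiocyte markers, 1 lay above 0 on the log2 scale. The median over the 18 was -0.66, beside -0.02 for all tested genes, and -0.39 without PBS replicate 2. None passed in edgeR. DESeq2 called 3 lower, where it called 0.324% of all genes lower. Over the tested hepatocyte markers the median was 0.08, over macrophage and neutrophil markers -0.04, and over stellate and endothelial markers 0.43. No marker of these lists was at 0 in all libraries. Their part in the Cyp2b9 and Cyp2b10 values was not tested.

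Profiles were compared by the Pearson r of log2(CPM + 1) over the 6 libraries, among 11953 genes with a mean of at least 1 CPM. The genes most like Cyp2b9 were Parva, F13a1, Exd2, Cab39 and Gtpbp2, each with an r of 0.99. F13a1, the A subunit of coagulation factor XIII, stood at 8.83 CPM in PBS replicate 2 and at 4.02 to 4.45 in the others. All 5 were highest in PBS replicate 2, and without that library r was -0.27 to 0.79. For Cyp2b10 they were Cyp4f13 (r 0.998), Thap7, Suds3, Eif2s3y and Camk1d (r 0.99 each), all highest in DOX replicate 3. Without that library Cyp4f13, a P450 of the 4F subfamily, kept an r of 0.99 with Cyp2b10, although it ranged only from 36.9 to 45.7 CPM over the 6 libraries. Between the receptors and the 5 P450 genes, r over the 10 pairs ran from -0.49 (Nr1i2 and Cyp2b9) to 0.79 (Nr1i2 and Cyp2a22). Nr1i3 had an r of 0.39 with Cyp2b10 and 0.60 with Cyp2a5, and Nr1i2 one of 0.78 and 0.01 with the same genes. With 6 libraries and the best of many genes taken, these values describe the profiles only.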

How the data were processed

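The authors deposited whole-number read counts per gene and FPKM values for the same 6 mouse liver libraries. Per the labels' protocols, RNA was column-purified and libraries were made with a SMARTER mRNA-Seq kit from 1.3 ug. GRCm38 and mm10 are the builds named in the submitters' processing notes. The sources used here do not give the aligner, the counter or the strand setting. The deposited FPKM equal counts divided by a fixed gene length and by the column's sum for all 18913 genes with values in at least 2 libraries (relative tolerance 1e-05).

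Groups came from the labels. Counts were fitted with edgeR 4.0.16 (R 4.3.3; filterByExpr, TMM, quasi-likelihood, no block), with Benjamini-Hochberg adjustment over all 13725 tested genes and a threshold of 0.05. Standard errors came from the F statistic. Cyp2b9 did not pass the filter and was fitted without it. Alternatives were RLE scaling, library size only, no filter, DESeq2 1.42.0, a replicate block, limma 3.58.1 on log2 FPKM plus 1 or 0.1 (mean FPKM of at least 0.1), and leaving out each library. Leaving out libraries without the filter was added after the data were seen. On counts simulated for DOX against PBS over 13725 genes, edgeR recovered 56% of 100 genes changed 2-fold and 100% of 100 changed 4-fold. These shares are not given for the genes described here. In DOX the SD was 64.1% of the mean CPM for Cyp2a5 and 95.4% for Cyp2b10. Recovery at such a spread, or at counts as low as those of Cyp2a4 and Cyp2b9, was not tested.

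The genes and lists were chosen with earlier results of these data known. Named were the group itself, the cluster neighbours, up to 4 genes of smallest p per list, and the 5 most alike profiles; others named were chosen after their values were seen. A gene that this rule names is not reported here. Replicate pairs differed by more than counting error (chi-square over its degrees of freedom 44.8 to 141.9). The counts put 3 counts at 0.0692 to 0.0907 CPM. Sequences are from RefSeq (8 of 8 promoters, GRCm38.p6) and GENCODE transcripts, aligned with Biopython 1.88; coordinates are from the GENCODE annotation of GRCm38.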

Additional observations from a re-analysis of the deposited data

How the results depend on the processing

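The number of genes changed was 4 with edgeR as described, 61 without the filter, 176 with DESeq2 and 21 with the replicate block, and 3 to 5 under the other scalings, on the FPKM table and with 1 library left out. Of the 7 genes described, 0 passed with edgeR and 1 with DESeq2 (Cyp2b9, lower). When 1 library was left out the count was 0 to 1. It was 1 only without the filter, being Cyp2a22, higher, without PBS replicate 2, and Cyp2b9, lower, without PBS replicate 3. The share of all genes called in those settings was not computed, so nothing is read from these calls. With no library left out, the fit without the filter called 0.292% of all genes. Of the 255 tested genes of all lists, 0 passed with edgeR. Over their 272 genes with a row, 5 passed without the filter, 14 with DESeq2 and 4 with the replicate block. Why these counts differ, that is the cause, was not tested. Nr1i2 and Cyp2a22 kept a positive log2 fold change and Cyp2a4 a negative one in all 20 settings, and Cyp2b9 a negative one in the 10 that gave it a value. Nr1i3 was negative in 7 of 20, Cyp2a5 in 10 and Cyp2b10 in 2, both without DOX replicate 3. Scaling by library size only moved the median of all tested genes from -0.02 to -0.15. Deviations of libraries with the same replicate number correlated at 0.244, 0.171 and 0.0231, and those of libraries with different numbers at -0.229 to 0.0756. The labels give the numbers no meaning, so the main fit did not pair the libraries. These correlations do not settle whether the numbers are pairs, and with the replicate block 21 genes were called instead of 4.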
